A study of Mus musculus with 9 samples.

Results

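The genes described here encode the proteins of the cytosolic ribosome, the particle that translates messenger RNA outside the mitochondria. They were taken from the gene table by symbol: every row whose name began with Rpl or Rps and went on with a digit, p or a, after 9 rows of S6 kinases and 300 rows with a pseudogene ending (-ps) were left out of 402 such rows. This gave 93 of the 56941 gene rows. Of these, 77 encode the standard ribosomal proteins, 46 of the large and 31 of the small subunit, 8 encode paralogs of a standard protein, 7 are near-copies of a standard gene, and Rps19bp1 encodes a protein that binds Rps19 and is no ribosomal protein.

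The libraries held RNA of pancreatic islets from wild-type male C57BL/6J mice, which entered the study at an age of 15 weeks and ate their diet for 9 months. The 3 diets were a low fat diet with 10% fat (LFD, 3 libraries), a high fat diet with 60% fat (HFD, 2 libraries) and a ketogenic diet with 89.9% fat (KD, 4 libraries). The labels do not say whether each library came from 1 animal, so p-values measure the spread between these libraries. Islet isolation dates and batches are not known here, and any such batch cannot be told apart from the diet.

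Each ribosome holds 1 copy of nearly every ribosomal protein, so the genes of this family are transcribed at related levels in most cells. Their mRNAs usually begin with a 5′ terminal oligopyrimidine (TOP) tract, a C at the cap followed by a run of C and T, through which mTORC1 and the RNA-binding protein Larp1 control their translation. Exocrine acinar cells and insulin-secreting beta cells both make large amounts of secreted protein and are rich in ribosomes. A count of mRNA does not measure translation of that mRNA or the number of ribosomes.

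The tract is shown because it is a letter pattern known for this family that the selection by name did not use. The 6 genes below are named members picked because their annotated start carries it, and most of the matched members' annotated starts do not. The sequences are from RefSeq promoters on GRCm38.p6, a build other than the one of the counts. Each line gives 20 bases before the annotated transcription start and 10 from it on, 5′ to 3′ on the gene's own strand, with the C and T run that opens the transcript in capitals. Rplp2 (chr7:141447631-141447660, plus strand) encodes a protein of the stalk that recruits elongation factors, Rpl28 (chr7:4792945-4792974, plus) and Rpl38 (chr11:114668560-114668589, plus) encode large subunit proteins, and Rps6 (chr4:86857358-86857387, minus), Rps15a (chr7:118116138-118116167, minus) and Rps27 (chr3:90213639-90213668, minus) encode small subunit proteins.
Rplp2: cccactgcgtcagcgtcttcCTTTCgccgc
Rpl28: tcgtcccgcctctcgtgtctCTCTTTCCgt
Rpl38: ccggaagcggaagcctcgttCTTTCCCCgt
Rps6: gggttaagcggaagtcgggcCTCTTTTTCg
Rps15a: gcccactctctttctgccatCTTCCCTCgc
Rps27: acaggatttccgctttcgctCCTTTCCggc

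A promoter was matched by symbol for 68 of the 93 genes, among them 57 of the 77 standard ones. A C at the annotated start followed by at least 4 letters that are C or T, searched on the sense strand only, was found in 13 of those 57 (22.8%) and in 3.01% of the 27025 genes with a promoter in the table. With the C allowed at any base within 5 of the annotated start, the pattern was found in 27 of 57 (47.4%) against 21.2% of all genes. A match or its absence describes these letters at the annotated start only.

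Library depth ran from 15513502 to 26588390 counts. The islet label was checked against marker genes: all 11 beta cell and all 7 alpha cell markers listed for the check were expressed above the filter, and beta cell markers took 1.70% to 13.0% of the counts of a library. Acinar markers took 11.4% to 61.0%, more than the beta cell markers in 8 of 9 libraries. By library, acinar markers took 35.9%, 25.2% and 15.2% on LFD, 19.03% and 11.4% on HFD, and 61.0%, 44.9%, 56.6% and 20.5% on KD, so the KD libraries 1, 2 and 3 held the most and KD replicate 4 lay within the LFD range. In bulk samples such as these, fewer cells of a type and less RNA per cell cannot be told apart.

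The ribosomal protein genes took overlapping shares of all counts on the 3 diets. The 93 rows held 1.51%, 1.58% and 1.24% of the counts of the LFD libraries (mean 1.45% ± 0.179, SD, n = 3), 1.55% and 1.44% on HFD (1.49% ± 0.0741, n = 2) and 1.26%, 1.30%, 1.184% and 1.45% on KD (1.30% ± 0.111, n = 4). The diets overlapped, and the KD mean lay 0.146 percentage points under the LFD mean. The 95% Wilson interval of each share reached at most 0.00606 points to either side, which covers counting error only.

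The same counts gave the opposite order when the libraries were scaled so that most genes stayed level. The trimmed mean of M-values method (TMM), which does this, set factors of 0.54, 0.84, 0.62 and 1.17 for the KD libraries, 1.05, 1.24 and 1.25 for LFD and 1.23 and 1.503 for HFD. As a percent of the TMM-scaled library size, the 93 rows came to 1.43, 1.28 and 0.992 on LFD (mean 1.24 ± 0.224), 1.26 and 0.961 on HFD (1.11 ± 0.213) and 2.33, 1.54, 1.91 and 1.24 on KD (1.76 ± 0.473). KD replicates 1, 2 and 3 lay above every LFD library, and KD replicate 4 lay within the LFD range. As a percent of the counts outside acinar and hormone genes, the values were 2.63, 2.39 and 1.67 on LFD, 2.30 and 1.89 on HFD and 3.43, 2.65, 2.96 and 2.23 on KD, again with KD replicate 4 inside the LFD range.

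**Figure D1:**
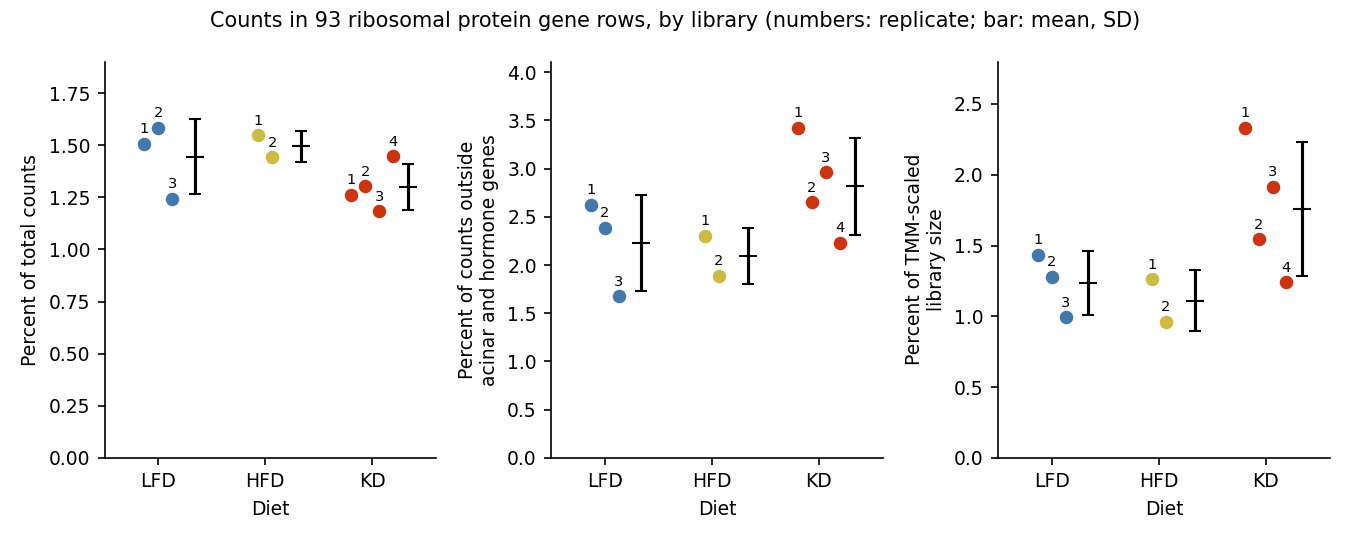
Counts in the 93 ribosomal protein gene rows of each library, as a percent of total counts (left), of counts outside acinar and hormone genes (middle) and of TMM-scaled library size (right). Points are libraries with their replicate number, and bars give the mean and SD of each diet; the KD mean is the lowest on the left axis, at 1.30%, and the highest on the other axes, at 2.82% and 1.76%.

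The TMM-scaled level followed the acinar markers from library to library. Ordered by the level, the libraries ran KD 1, KD 3, KD 2, LFD 1, LFD 2, HFD 1, KD 4, LFD 3 and HFD 2. Ordered by the acinar share, they ran the same way except that HFD replicate 1 and KD replicate 4, the sixth and the seventh, changed places. The level is the share of total counts divided by the TMM factor, and that factor alone ran nearly opposite to the acinar share. The match of orders is therefore partly set by the scaling. Unscaled, the members' share ranked 9 of 9 in KD replicate 3 (1.184%) and 7 in KD replicate 1 (1.26%). This order is given as a description of 9 libraries that differ in depth, in diet and in other cell types. The part of the acinar RNA in the level was not tested beyond the fit with an acinar score given with the diet comparisons.

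**Figure D2:**
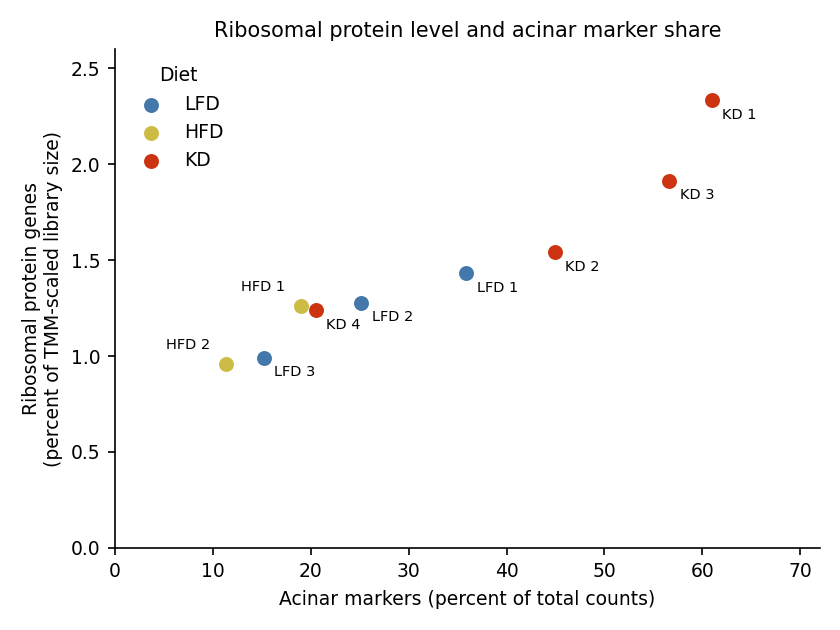
Level of the ribosomal protein genes in each library (y axis, percent of TMM-scaled library size) against the share of acinar marker genes (x axis, percent of total counts), with points coloured by diet. KD replicate 1 stands at 61.0% acinar counts and 2.33%, and HFD replicate 2 at 11.4% and 0.961%.

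The comparison of KD with LFD asked which of these genes differ between the ketogenic and the control diet. No ribosomal protein gene passed the test. With edgeR's quasi-likelihood test on the TMM scale, 0 of the 88 genes tested had a Benjamini-Hochberg adjusted p under 0.05 (over all 18548 genes tested, 4.12% did), and the lowest was 0.0691, for Rpl8. The other 5 genes were under the filter on low counts. At an unadjusted p under 0.05 there were 39, all higher on KD, beside 10.8% of all genes tested. DESeq2 called 10 (3.66% of all genes were called higher) and limma-voom with quality weights called 4 (3.46%).

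The members' log2 differences lay close together and mostly above 0. On the TMM scale 84 of 88 were positive, with a median of 0.49 and a range from -0.59 (Rps3a3) to 0.91 (Rpl37), while the median over all genes tested was -0.02. On the scale of total counts, with no TMM factor, 15 of 88 were positive and the median was -0.16, while the median of all genes moved to -0.59. The members' median therefore lay above that of all genes by 0.51 on the first scale and 0.42 on the second. With an acinar marker score in the model, the members' median was 0.08, and 63 of 88 were positive.

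On the TMM scale, to which the gene levels in this paragraph belong, the KD libraries stood apart from each other. Of the 88 genes, 79 had their highest level of all 9 libraries in KD replicate 1, and 81 had their lowest level among KD libraries in KD replicate 4. On total counts the order differed: the members' share was 1.26% in KD replicate 1 and 1.45%, the highest of the KD libraries, in KD replicate 4. KD replicate 1 was above all LFD libraries for 84 genes, KD replicate 3 for 81, KD replicate 2 for 58 and KD replicate 4 for 12. The share of all genes tested that ranked in these ways is not given here. In 10 genes every KD library was above every LFD library (Rpl8, Rpl27a, Rpl36, Rpl41, Rpl7l1, Rps2, Rps9, Rps10, Rps15 and Rps19bp1), named here after their values were seen, beside 9.67% of all genes tested. Without KD replicate 4, 20 members were called by edgeR (3.88% of all genes were called higher), and with no filter on low counts 9 were (1.03%).

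**Figure D3:**
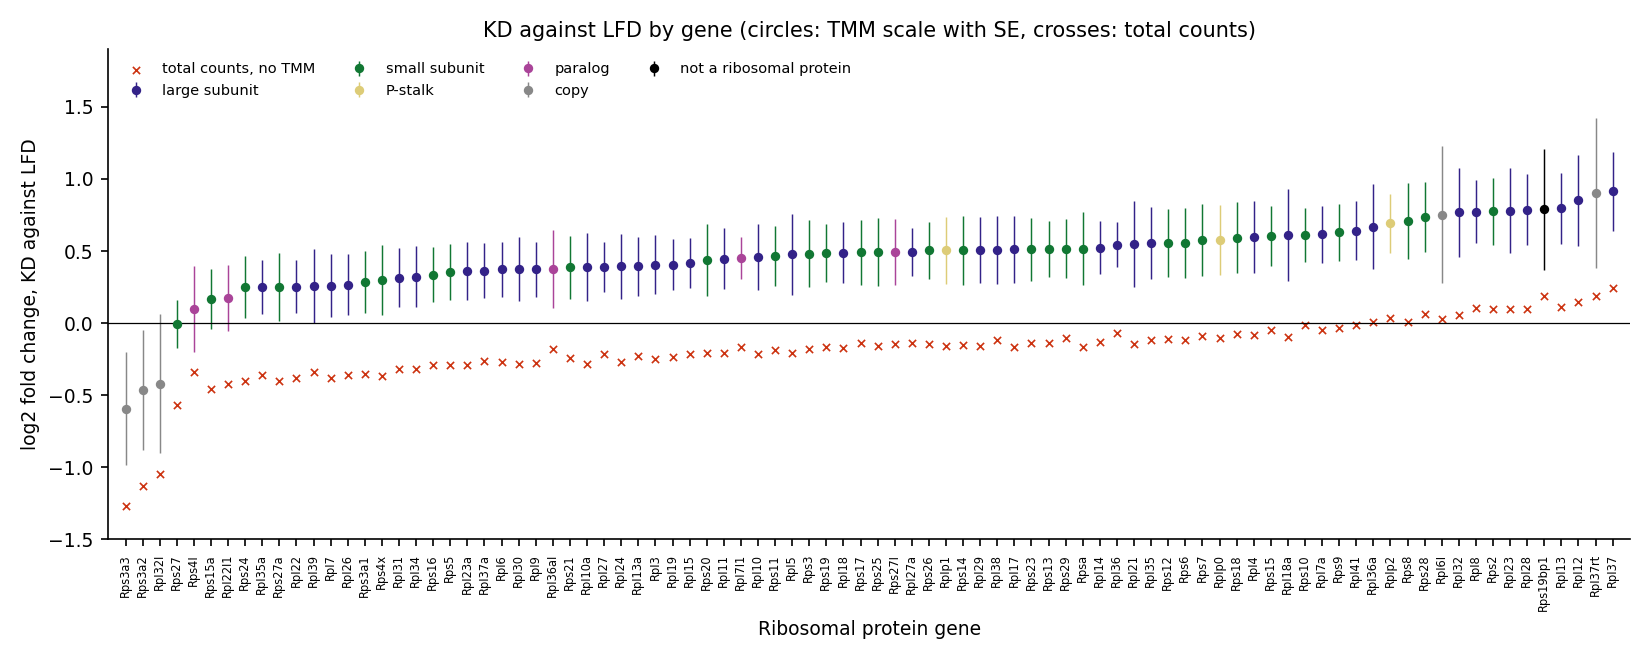
Difference between KD and LFD (y axis, log2 fold change) for the 88 tested genes, ordered along the x axis. Circles with bars are estimates and SE on the TMM scale, coloured by role, and crosses are estimates on total counts; 84 circles lie above 0 but only 15 crosses do, so the direction of most genes depends on the scale.

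The P-stalk proteins Rplp0, Rplp1 and Rplp2 form the flexible arm of the large subunit that recruits elongation factors. Rplp0 had 593, 565 and 417 CPM (counts per 1000000 of TMM-scaled library size) on LFD, 431 and 354 on HFD, and 1072, 678, 858 and 526 on KD. KD replicates 1, 2 and 3 were above the LFD libraries and KD replicate 4 was among them. The log2 difference between KD and LFD was 0.58 (SE 0.24, edgeR adjusted p = 0.191), and on total counts it was -0.10 (SE 0.32), with 624, 700 and 523 counts per 1000000 total counts on LFD and 580, 572, 531 and 615 on KD. Rplp2, whose start carries the tract printed above, had 71.7, 85.5 and 54.1 CPM on LFD and 152, 101, 117 and 85.1 on KD. Its log2 difference was 0.69 (SE 0.21, edgeR adjusted p = 0.0812) on the TMM scale and 0.03 on total counts, and Rplp1 stood at 0.50 and -0.16.

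Among the other 43 large subunit genes, all log2 differences were positive on the TMM scale, with a median of 0.48, and 8 were positive on total counts, with a median of -0.20. Rpl8, a protein of the large subunit core and the gene with the lowest adjusted p, had 226, 239 and 169 CPM on LFD, 193 and 200 on HFD, and 487, 318, 387 and 254 on KD. Its KD and LFD libraries did not overlap on this scale, and its log2 difference was 0.77 (SE 0.22). Per 1000000 total counts it had 238, 296 and 211 on LFD and 263, 268, 239 and 297 on KD, which overlap, with a log2 difference of 0.10 (SE 0.30).

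Rpl37, a small zinc-binding protein of the large subunit, had the largest log2 difference among the standard genes. It had 43.9, 31.7 and 25.8 CPM on LFD, 39.4 and 25.6 on HFD, and 88.6, 53.7, 71.2 and 41.6 on KD. KD replicate 4 lay under LFD replicate 1, so the diets overlapped. The log2 difference was 0.91 (SE 0.28, edgeR adjusted p = 0.0894), and on total counts it stayed positive at 0.24 (SE 0.28). The next largest on the TMM scale were Rpl12 (0.85), a protein at the base of the stalk, Rpl13 (0.80), Rpl28 (0.79) and Rpl23 (0.78), and all of these were positive on total counts too, from 0.10 for Rpl28 to 0.15 for Rpl12.

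Rpl5 and Rpl11 bind the 5S ribosomal RNA and, outside the ribosome, the p53 regulator Mdm2. Rpl5 had 335, 261 and 217 CPM on LFD and 538, 329, 411 and 232 on KD, with a log2 difference of 0.48 (SE 0.28), and Rpl11 stood at 0.45 (SE 0.21). On total counts the differences were -0.21 and -0.20. Rpl10, which joins the particle late in its assembly, stood at 0.46 (SE 0.23) on the TMM scale and -0.21 on total counts, and Rpl41, the smallest ribosomal protein, at 0.64 (SE 0.21) and -0.02. The Rpl38 values were 0.51 (SE 0.24) and -0.12.

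Levels between genes were compared per kilobase of the longest coding transcript, as the mean CPM over the 9 libraries. Rpl10 was the highest at 665 CPM per kilobase, followed by Rpl41 at 632, Rps4x at 471 and Rplp0 at 449.5. Rpl22, at 16.6, and Rps15a, at 17.03, were the lowest of the standard genes. These places depend on the annotated length, which was 5179 bases for Rps15a and 2051 for Rpl22 against 855 for Rpl10. Whether the longest transcript is the one expressed was not tested.

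The 31 small subunit genes had a median log2 difference of 0.50 on the TMM scale, 30 of them positive, and of -0.15 on total counts, 3 of them positive. Rps6, the small subunit protein that S6 kinase phosphorylates downstream of mTORC1, had 273, 235 and 186 CPM on LFD, 219 and 167 on HFD, and 479, 295, 363 and 226 on KD. KD replicate 4 lay among the LFD libraries. The log2 difference was 0.56 (SE 0.24, edgeR adjusted p = 0.205) on the TMM scale and -0.12 on total counts. Rpsa, which also serves as a laminin receptor, stood at 0.52 (SE 0.25) and -0.17, Rps3, which lines the mRNA entry channel, at 0.48 (SE 0.23) and -0.18, and Rps19 at 0.49 (SE 0.20) and -0.16.

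Rps27, a zinc-binding protein of the small subunit, was the standard gene that differed least between the KD libraries and LFD on the TMM scale. It had 57.1, 55.8 and 38.9 CPM on LFD, 55.0 and 37.8 on HFD, and 51.7, 50.8, 47.7 and 51.1 on KD. All 4 KD libraries lay within the LFD range, and KD replicate 4 was above KD replicates 2 and 3. The log2 difference was -0.01 (SE 0.17, edgeR adjusted p = 0.987), the only negative value among the 77 standard genes on this scale. The sign on the TMM scale turned to positive when LFD replicate 1 (0.08), LFD replicate 2 (0.07) or KD replicate 3 (0.02) was left out. On total counts the place of Rps27 was the other extreme: its difference of -0.57 (SE 0.31) was the most negative of the 77 standard genes.

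**Figure D4:**
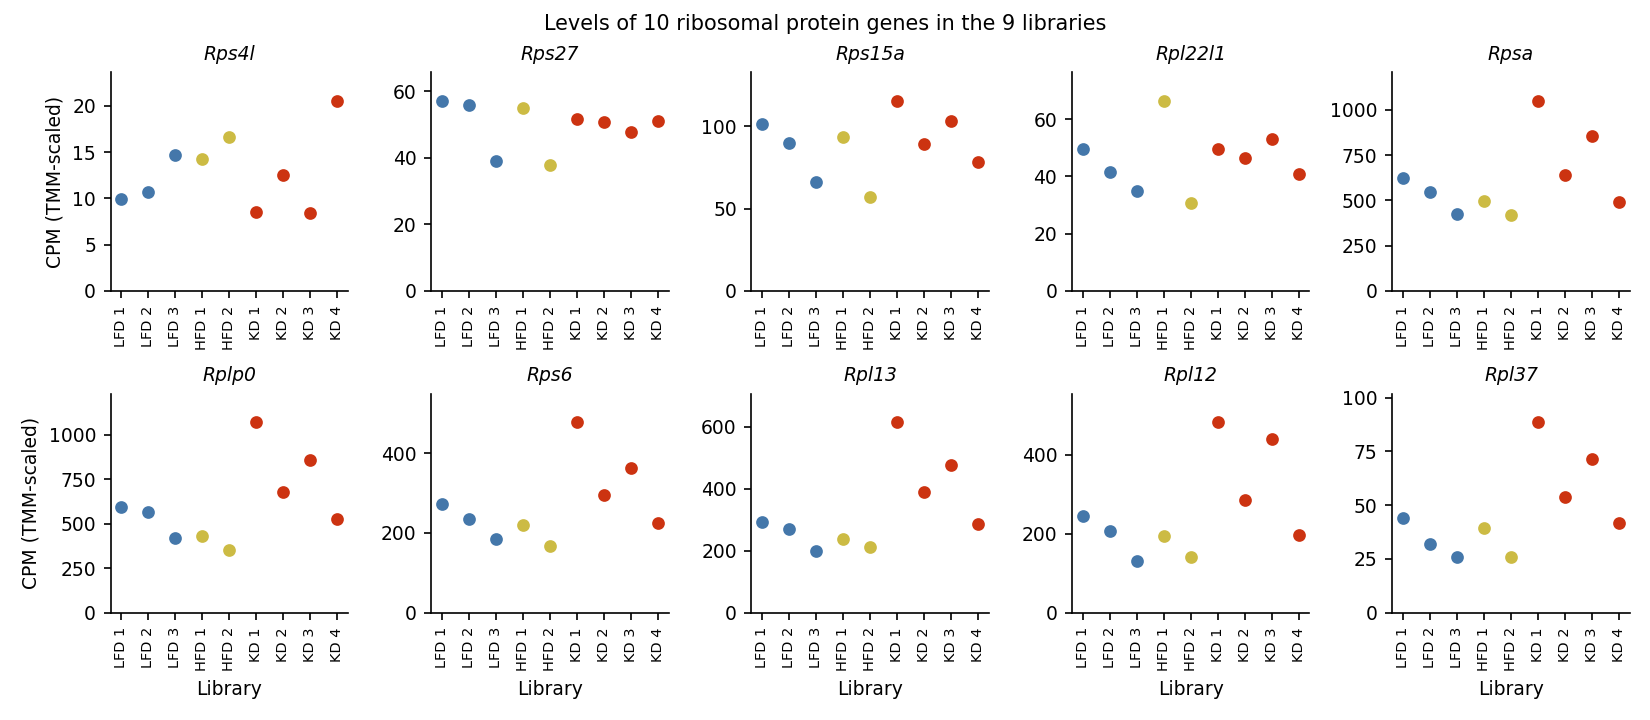
Level of 10 ribosomal protein genes in each of the 9 libraries (y axes, CPM on the TMM scale, each starting at 0), coloured by diet. Rplp0, Rps6, Rpsa, Rpl12, Rpl13 and Rpl37 have their highest value in KD replicate 1, Rps27 stays between 47.7 and 51.7 CPM on KD, and Rps4l has its highest value, 20.6 CPM, in KD replicate 4.

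Measured against the sum of the members' own counts, no member passed the test. With that sum as the size of each library, edgeR called 0 of 88 genes between KD and LFD, while 7.14% of all genes tested were called. At an unadjusted p under 0.05 there were 2, Rps3a2 and Rps3a3, beside 24.4% of all genes, and DESeq2 and limma-voom were not run on this scale. The members' median was -0.01 and that of all genes tested -0.48, since this scale holds the members' sum level. The shares of all genes called are therefore no like comparison for the members. Among genes of at least 5 CPM, the largest positive differences were those of Rpl37 (0.40, SE 0.25), Rpl12 (0.33, SE 0.28) and Rpl13 (0.28, SE 0.28), and the largest negative ones were Rps27 (-0.43, SE 0.27), Rps15a (-0.30, SE 0.25) and Rps4l (-0.29, SE 0.44).

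The ratio of small to large subunit counts overlapped between KD and LFD, while both HFD libraries lay above all others. It was 0.714, 0.713 and 0.693 on LFD, 0.736 and 0.725 on HFD, and 0.684, 0.680, 0.687 and 0.704 on KD. These differences in the ratio were not tested. Over the 9 libraries the log2 CPM of a member had a median Pearson r of 0.959 with the mean of the members, which includes that member and shares each library's scaling. Rps4l was the only member with a negative value, -0.77, and Rps27 had 0.56.

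Paralogs can replace a standard protein in some ribosomes, and several are best known from testis or muscle. Rpl10l had 0 counts in all 9 libraries. The 95% upper limit, taken as 3 counts over all of them together, is 0.0176 counts per 1000000 and covers counting error only. Rpl39l had 2 counts, both in LFD replicate 2, and Rpl3l had 9, of which 8 were in HFD replicate 2 and 1 in KD replicate 4. The 5 other paralogs were measured in every library, and their ratio to the standard partner was compared between KD and LFD by a two-sided exact permutation test over 35 splits, which cannot give a p under 0.0286.

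Rps27l, a paralog of Rps27 known as a p53 target, had the largest difference in ratio. The ratio of Rps27l to Rps27 counts was 0.542, 0.388 and 0.444 on LFD, 0.432 and 0.527 on HFD, and 0.756, 0.603, 0.817 and 0.443 on KD. KD replicates 1, 2 and 3 were above the LFD libraries and KD replicate 4 was among them. The mean log2 ratio differed by 0.49 (exact permutation p = 0.171, adjusted over the 5 pairs 0.571). The scale of the libraries cancels in this ratio.

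Rpl22l1 outnumbered its partner Rpl22 in every library, with ratios of 1.404, 1.49 and 1.10 on LFD, 1.87 and 1.29 on HFD, and 1.10, 1.36, 1.25 and 1.37 on KD. Their log2 ratio differed by -0.06 between KD and LFD (exact permutation p = 0.686). Rpl7l1, an assembly-related relative of Rpl7, stood at 0.21 (exact permutation p = 0.229) and Rpl36al at -0.21 (exact permutation p = 0.457), a value that was -0.06 without LFD replicate 2 and -0.43 without KD replicate 4. The libraries of the diets overlapped in all 5 pairs. Short near-identical genes can share reads, and the treatment of such reads is not known here, which leaves these ratios uncertain where a pair is alike in sequence.

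Rps4l, a relative of the X-linked Rps4x, had an order of libraries opposite to that of the family. It had 9.93, 10.7 and 14.7 CPM on LFD, 14.2 and 16.7 on HFD, and 8.56, 12.5, 8.37 and 20.6 on KD. KD replicate 4 and HFD replicate 2 were the highest, and KD replicates 1 and 3, which held the most acinar counts, were the lowest. The log2 difference between KD and LFD was 0.10 (SE 0.30, edgeR adjusted p = 0.878) on the TMM scale and -0.34 on total counts. With the acinar score in the model it was 0.59 (SE 0.17, edgeR adjusted p = 0.0474), the 1 member called in that fit (3.02% of all genes were called higher).

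The 7 near-copies carried few counts. Rps12l1 had 15 counts and Rps27rt 60 over the 9 libraries, both under the filter. Rps3a3 had 1.53, 1.93 and 1.69 CPM on LFD, 1.0 and 0.75 on HFD, and 1.32, 0.76, 1.78 and 0.81 on KD, with a log2 difference of -0.59 (SE 0.39), and Rps3a2 stood at -0.46 (SE 0.41), while Rps3a1, the standard gene, had 447, 372 and 333 CPM on LFD and 593, 412, 497 and 370 on KD. Reads of such copies may come from the standard gene. Rows with the -ps ending, left out here, held 0.407% to 0.477% of the counts of members and -ps rows together.

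The comparison of HFD with LFD asked the same of the high fat diet. With edgeR 0 of 88 genes were called (0.0% of all genes tested), and 0 had an unadjusted p under 0.05, beside 9.99% of all genes. DESeq2 also called 0 (0.113% of all genes were called higher), as did limma-voom (0.00539%). On the TMM scale 16 of 88 log2 differences were positive, with a median of -0.14, beside 0.00 over all genes, and on total counts 55 were positive, with a median of 0.05, beside 0.20. On the TMM scale both HFD libraries lay under every LFD library in 6 genes (14.1% of all genes tested did). The Rplp0 difference was -0.42 (SE 0.29) and that of Rpl28 -0.43 (SE 0.29), with 73.9 and 67.4 CPM on HFD and 106, 109 and 70.9 on LFD. Without HFD replicate 2, the library with the fewest acinar counts, the members' median was 0.03.

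The comparison of KD with HFD shares its KD libraries with the first comparison and its HFD libraries with the second. With edgeR 0 of 88 genes were called (0.0% of all genes tested), 49 had an unadjusted p under 0.05 and all of these were higher on KD, beside 12.1% of all genes. DESeq2 called 29 (5.58% of all genes were called higher) and limma-voom 0 (0.0%). With no filter on low counts 13 were called (0.563%), and without KD replicate 4 39 were (6.39%). On the TMM scale 86 of 88 differences were positive, with a median of 0.62, and on total counts 14 were, with a median of -0.22, while the medians over all genes were -0.04 and -0.81. On the TMM scale every KD library was above both HFD libraries in 37 genes (15.7% of all genes tested were). Rpl28 had the largest difference, 1.22 (SE 0.29), and Rplp0 stood at 0.998 (SE 0.29). With the acinar score in the model the median was -0.11.

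Other genes of the translation machinery were read from lists. Rack1 and Fau, which encode ribosomal proteins under other names, had log2 differences of 0.67 (SE 0.26) and 0.41 (SE 0.18) between KD and LFD on the TMM scale, neither past the test. Of 13 elongation factors and other genes with TOP-type mRNAs 0 were called by edgeR, with 6 at an unadjusted p under 0.05 and a median of 0.40 (-0.23 on total counts). Over all genes tested, 4.12% were called in either direction, and 10.8% were higher on KD at an unadjusted p under 0.05. The count of 6 is in either direction, so 10.8% is no like share for it. Eef2, the translocation factor, had 1477, 1442 and 1201 CPM on LFD and 3370, 2060, 2621 and 1629 on KD. On the TMM scale these did not overlap, with a log2 difference of 0.82 (SE 0.27, edgeR adjusted p = 0.110).

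Of 28 initiation factors 1 was called higher, the hypusine-carrying factor Eif5a, by 0.73 (SE 0.16, edgeR adjusted p = 0.029) on the TMM scale. Of all genes tested, 4.12% were called in either direction. Eif5a had 125, 140 and 95.1 CPM on LFD, 122 and 136 on HFD, and 226, 182, 209 and 181 on KD. The KD and LFD libraries did not overlap on this scale, and the values of Eif5a on total counts are not given here. The median of the initiation factors was 0.25 on the TMM scale and -0.37 on total counts. Of 18 regulators of mTORC1 and MYC 1 was called higher on the TMM scale, the mTORC1 inhibitor Akt1s1 (0.71, SE 0.17, edgeR adjusted p = 0.041). Mtor stood at 0.44 (edgeR adjusted p = 0.120) and Larp1 at 0.88 (edgeR adjusted p = 0.124). The median of these 18 was 0.30 on the TMM scale and -0.33 on total counts, on which the single genes are not given here.

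Genes that build the ribosome were read in the same way. Of 50 genes of ribosome assembly 0 were called by edgeR, with 7 at an unadjusted p under 0.05 and a median of 0.18 (-0.44 on total counts). Of 11 genes of RNA polymerase I and its factors 0 were called, with 2 at an unadjusted p under 0.05. Their median was 0.24 (-0.46 on total counts). Of 9 host genes of small nucleolar RNAs 0 were called, with 1 at an unadjusted p under 0.05. The median of these 9 was 0.07 (-0.57 on total counts). Of 78 genes of the mitochondrial ribosome, which is a separate particle, 1 was called higher on the TMM scale, Mrpl28 (0.64, SE 0.16, edgeR adjusted p = 0.049). Their median was 0.30 (-0.28 on total counts). Among all genes tested, 4.12% were called in either direction, and 10.8% were higher on KD at an unadjusted p under 0.05. The list counts at an unadjusted p are in either direction, so 10.8% is no like share for them. None of these lists was compared with the ribosomal protein genes by a test.

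Markers of other cells and of RNA quality moved between KD and LFD beside these values. Of 26 acinar markers 25 were positive, with a median of 1.53 on the TMM scale, and 1 was called lower, Amy2b. Of 12 lymphocyte markers 11 were called lower and 0 were positive, with a median of -5.30. Cd79b, for example, had 11.96, 16.8 and 4.64 CPM on LFD and 0.39, 0.13, 0.00 and 0.22 on KD. Of 13 duct markers 4 were called lower and 3 were positive, with a median of -0.50. Of all genes tested, 4.12% were called in either direction. Of 10 macrophage markers 1 was called lower (Lyz2) and all were negative, with a median of -0.78. Of 10 fibroblast and stellate markers 0 were called by edgeR and 6 had an unadjusted p under 0.05. All 10 were negative, with a median of -0.79. The nuclear RNAs Malat1 and Neat1 took 1.17% to 1.41% of counts on LFD and 0.42% to 0.644% on KD. Mitochondrially encoded genes took 1.58%, 2.37% and 2.12% of counts on LFD and 0.375%, 0.821%, 0.761% and 1.38% on KD, so the KD libraries were all lower. The part of these in the ribosomal protein values was not tested, apart from the acinar and lymphocyte scores. With the lymphocyte score in the model the members' median between KD and LFD was 0.88. That score ran from 1.34 to 3.97 on LFD and from -2.13 to -1.30 on KD, so this fit extends the score beyond the range of each diet.

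The genes outside the family whose log2 CPM followed the members' mean most closely over the 9 libraries were Eef1b2, an elongation factor subunit (Pearson r = 0.993), Rab26 (0.990), Ifrd2 (0.988), Parp16 (0.987) and Ttyh1 (0.986), of 10377 genes compared. These r values are a description of 9 libraries that share their scaling. Eef1b2 had 139, 123 and 86.5 CPM on LFD, 109 and 81.5 on HFD, and 264, 156, 216 and 121 on KD. Its lowest library was HFD replicate 2 and its highest KD replicate 1, as for most of the family.

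The TOP letters and transcript composition were set beside the members' values. The 13 genes with the TOP letters at the annotated start had a median log2 difference between KD and LFD of 0.52 on the TMM scale, from -0.01 (Rps27) to 0.79 (Rpl28), and the 44 without them had 0.49. On total counts the medians were -0.12 and -0.17. Across the 77 standard genes, the difference measured against the members' sum had a Pearson r of 0.31 with the GC content of the longest transcript, coding or not. With the log2 length of the longest coding transcript the Pearson r was -0.13. These are across genes, which are not independent replicates.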

How the data were processed

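Polyadenylated RNA was sequenced from islets of 9 libraries. Per the submitters' processing notes, the tools included cutadapt 1.16, STAR 2.7.9a, featureCounts 1.6.3 and DESeq2 1.40.2 with the GRCm39 build. The authors deposited raw counts per gene, and symbols from the supplied annotation matched 51948 of 56941 rows. The members and all gene lists were chosen with earlier results of these data known, so no list was tested as a set.

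Counts were fitted over all 9 libraries with edgeR 4.0.16 in R 4.3.3 (filterByExpr by diet, TMM, robust quasi-likelihood test), with Benjamini-Hochberg adjustment over 18548 genes and a threshold of 0.05. DESeq2 1.42.0, limma 3.58.1, other scalings, filters, marker score covariates, a replicate block and leaving out each library were alternatives. The code was tested on simulated data. CPM correlations used a prior count of 2. Paralog ratios were tested in Python 3.11.15 with scipy 1.17.1.

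Members were named by role, as paralog pairs, as the 5 largest differences in each direction between KD and LFD with at least 5 CPM, the 3 highest and 3 lowest by CPM, and the 3 largest deviations each way from the members' sum. Of the genes lower on KD, 1 qualified. Rpl8, Rps3a1, Rps3a3 and the genes without overlap were chosen after their values were seen, and genes of other lists were those with the lowest p or described for their role. Symbols of 3 RNA polymerase I genes and 1 snoRNA host gene were unmatched. No pair of libraries of a diet agreed within sampling noise. A result on 1 listed gene is not reported here.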

Additional observations from a re-analysis of the deposited data

Results flagged for a closer look

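In Rps3a2, a near-copy of Rps3a1 with 209 counts over all libraries, the highest KD library, replicate 1 at 1.87 CPM, stood apart from the other KD libraries at 0.80, 0.98 and 0.90 CPM. Its gap to the nearest of the others made up 0.833 of the KD range, above the 95% critical value of Dixon's test for 4 samples. Chance places about 1 group in 20 past that value, and 35 genes were examined. These values are TMM-scaled: KD replicate 1 had the lowest factor, 0.54, and was the highest library for 79 of the 88 members tested. The gap on total counts is not given here.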

How the results depend on the processing

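Between KD and LFD, the number of members called, 0 with edgeR, was 10 with DESeq2, 4 with limma-voom, 9 with no low-count filter, 1 with the acinar score, 1 with a GC and length offset (0.933% of all genes were called higher) and 47 with a replicate block, in which 5.33% of all genes were called higher. It ran from 0 to 20 over fits that left out 1 library, with 20 without KD replicate 4. The median difference of 0.49 was 0.08 with the acinar score, 0.88 with the lymphocyte score and -0.16 on total counts, an alternative chosen after seeing the data, and ran from 0.33 to 0.61 without 1 library. Between HFD and LFD the median turned from -0.14 to 0.17 with the acinar score, 0.17 with the lymphocyte score and 0.05 on total counts, and ran from -0.40 to 0.03 without 1 library. Between KD and HFD, 29 were called with DESeq2, 13 with no filter, 56 with the replicate block (7.32% of all genes) and 0 to 39 without 1 library (39 without KD replicate 4), and the median turned to -0.11 with the acinar score and -0.22 on total counts. Against the members' sum 2 were called lower with the replicate block, in which 36.2% of all genes were called lower, and 0 without any 1 library, with 3.63% to 24.2% of all genes called lower. That scale holds the members' sum level, so these shares of all genes are no like comparison. The log2 share of total counts, -0.15 for KD minus LFD (-0.25 to -0.08 without 1 library), was 0.49 per TMM-scaled size and 0.35 outside acinar and hormone genes. The cause of these shifts was not tested. The lymphocyte score did not overlap between any of the diets, so fits with it extend the score beyond the range of each diet.

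The replicate block pairs libraries by number. The deviations of equal numbers from their diet means correlated at 0.222, -0.016 and -0.003 for the 3 pairs of LFD and KD. With HFD the equal numbers correlated at 0.069 and 0.075 for LFD and at 0.038 and 0.081 for KD. Unequal numbers ran from -0.277 to 0.238. Deviations from the means of so few libraries cannot settle whether equal numbers share more than a number. KD replicate 4 has no partner and adds nothing to that fit.

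Named genes turned sign as follows, in log2 of KD against LFD. On total counts: Rpl10 -0.21, Rpl11 -0.20, Rpl22 -0.38, Rpl22l1 -0.42, Rpl3 -0.25, Rpl36al -0.18, Rpl38 -0.12, Rpl39 -0.34, Rpl4 -0.08, Rpl41 -0.02, Rpl5 -0.21, Rpl7 -0.38, Rpl7l1 -0.16, Rplp0 -0.10, Rplp1 -0.16, Rps14 -0.15, Rps15a -0.46, Rps19 -0.16, Rps27l -0.15, Rps3 -0.18, Rps4l -0.34, Rps4x -0.36, Rps6 -0.12 and Rpsa -0.17. With the acinar score: Rpl22 -0.03, Rpl22l1 -0.12, Rpl39 -0.08, Rpl5 -0.11, Rpl7 -0.11, Rps15a -0.17 and Rps4x -0.16. With the lymphocyte score, which did not overlap between LFD and KD: Rpl22 -0.21, Rps27 0.80 and Rps4l -0.15. With the replicate block: Rps27 0.00 and Rps4l -0.25. With the GC and length offset: Rps4l -0.10. Leaving out 1 library turned 3 genes, with ranges of -0.64 to 0.10 for Rpl32l, -0.17 to 0.08 for Rps27 and -0.25 to 0.29 for Rps4l. It also turned the ratios of Rpl22l1 to Rpl22 (-0.19 to 0.03) and of Rps4l to Rps4x (-0.70 to 0.07), while those of Rpl36al (-0.43 to -0.06), Rps27l (0.37 to 0.67) and Rpl7l1 (0.16 to 0.31) kept their sign. Limits are the 2 HFD libraries, the acinar share that moves with the diet, and reads shared between gene copies.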
